A study of Homo sapiens with 6 samples.

Results

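The transcription factors that drive epithelial-mesenchymal transition (EMT) and the genes most often read as its outcome were followed in BT-549 cells after silencing of the lncRNA NEAT1. The genes were chosen by name, as the rows of the TPM table for ZEB1, ZEB2, SNAI1, SNAI2, TWIST1, TWIST2, CDH1, CDH2, VIM and FN1, which makes 10 of 25545 genes. All 10 had a row, and 9 passed the filter on low values and were tested among 10721 genes, the exception being CDH1. BT-549 was established from a triple-negative breast cancer (TNBC), which lacks the hormone receptors and HER2 amplification. RNA-seq was performed on 3 cultures transfected with a control siRNA (CsiRNA) and 3 transfected with an siRNA against NEAT1 (NEAT1siRNA), each harvested at 48 h. All 6 cultures were grown in RPMI1640 with fetal bovine serum and insulin, and no drug or stable transgene is given for these samples, although their titles carry the prefix "tet-" in both groups. The design has limits as a model, since it rests on 1 cell line, 1 time and 1 NEAT1siRNA, so that effects of the siRNA other than NEAT1 loss cannot be told apart from NEAT1 loss.

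EMT is the programme by which epithelial cells give up cell-cell adhesion and apical-basal polarity and acquire motility. The ZEB, SNAIL and TWIST families are its core transcription factors. ZEB1 and ZEB2 are zinc finger homeobox proteins, SNAI1 (SNAIL) and SNAI2 (SLUG) are zinc finger proteins, and TWIST1 and TWIST2 are basic helix-loop-helix proteins. Members of these families repress CDH1, which encodes E-cadherin of the epithelial adherens junction. Cells that have passed through EMT typically express N-cadherin (CDH2), the intermediate filament protein vimentin (VIM) and the matrix glycoprotein fibronectin (FN1). TNBC lines of the mesenchymal kind, to which BT-549 is usually assigned, express this programme at rest, and silencing experiments in them ask whether it recedes.

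The ZEB and SNAIL proteins bind a form of the E-box, CACCTG or, on the other strand, CAGGTG, and TWIST proteins bind several E-boxes including this form. The RefSeq promoter windows used here (GRCh38.p14, 250 bases before to 50 after a start site) covered 6 of the 10 genes with 13 windows. Searched on both strands, these 6 letters were present in 2 of the 13 windows, both at ZEB1, against 7231 of 35116 windows of all genes, or 20.6%. The ZEB1 window with 3 matches is shown as the case with the motif, and the windows at the start of FN1 and CDH2 are shown because these were the members that fell with NEAT1siRNA. Capitals mark CACCTG or CAGGTG, and each run reads 5′ to 3′ on the strand of the gene.
ZEB1, chr10:31318966-31319265, plus strand: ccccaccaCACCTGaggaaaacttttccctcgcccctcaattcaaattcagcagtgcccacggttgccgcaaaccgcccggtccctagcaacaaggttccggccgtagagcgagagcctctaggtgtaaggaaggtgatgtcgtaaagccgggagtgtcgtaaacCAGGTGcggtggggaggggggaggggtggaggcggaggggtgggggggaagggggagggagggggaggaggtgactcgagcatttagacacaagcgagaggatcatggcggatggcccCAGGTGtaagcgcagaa
FN1, chr2:215436019-215436318, minus strand: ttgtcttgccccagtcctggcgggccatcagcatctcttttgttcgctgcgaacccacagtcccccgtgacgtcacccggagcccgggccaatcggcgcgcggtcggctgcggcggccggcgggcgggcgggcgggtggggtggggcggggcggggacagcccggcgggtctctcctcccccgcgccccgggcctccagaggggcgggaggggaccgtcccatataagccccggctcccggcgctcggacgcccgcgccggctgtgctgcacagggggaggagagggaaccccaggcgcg
CDH2, chr18:28177081-28177380, minus strand: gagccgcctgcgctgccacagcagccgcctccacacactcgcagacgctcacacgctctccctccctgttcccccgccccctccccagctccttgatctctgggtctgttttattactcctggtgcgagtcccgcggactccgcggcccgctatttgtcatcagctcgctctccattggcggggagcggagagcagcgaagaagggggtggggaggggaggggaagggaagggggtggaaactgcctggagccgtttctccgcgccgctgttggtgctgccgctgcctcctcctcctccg
In the ZEB1 window the motifs begin 242 and 85 bases before and 33 bases after the start site. Neither the FN1 nor the CDH2 window holds these letters, which says only that they are absent from these 300 bases.

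Levels are given as TPM, in which the reads of a gene are divided by its transcript length and set to a total of 1000000 per library, so that they can be compared between genes. Fold changes are differences of log2(TPM + 1), NEAT1siRNA minus CsiRNA, from a limma fit across all genes tested, and a gene was called at an adjusted p under 0.05. Of the 10721 genes tested, 1498 were called (14%), 535 of them higher (4.99%) and 963 lower (8.98%) with NEAT1siRNA. The median log2 fold change over all genes tested was -0.04, and in 30.3% of genes the values of both groups did not overlap. NEAT1 itself was at 13.4, 7.68 and 10.8 TPM with CsiRNA and at 4.36, 2.96 and 2.73 TPM with NEAT1siRNA. Silencing thus left 31.5% of the mean NEAT1 level (log2 fold change -1.41, SE 0.14, adjusted p = 1.21e-07 in limma). Recovered depth was 15787257 to 20342818 reads per library.

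The identity of the cells was read from markers. ESR1, the estrogen receptor gene, was listed at 0 in every library, PGR reached at most 0.00676 TPM, and ERBB2 was at 5.76 to 6.36 TPM, the range over all 6 libraries. Markers of a mesenchymal breast cancer line were all above 1 TPM, with AXL at 50.5 to 62.5 and CAV1 at 295 TPM or more. Their summed level over 6 genes, VIM and ZEB1 among them, was 1593 to 1800 TPM with CsiRNA and 1566 to 1855 TPM with NEAT1siRNA. Over the 4 that are not members it was 620 to 672 TPM with CsiRNA and 686 to 804 TPM with NEAT1siRNA. These sums did not overlap, but the 4 genes did not move alike. CAV2, a caveolin gene, was at 102 to 112 TPM with CsiRNA and 126 to 200 TPM with NEAT1siRNA (log2 fold change 0.50, adjusted p = 0.00463, and 0.31 without NEAT1siRNA replicate 2). CAV1 was also higher with NEAT1siRNA without overlap. AXL went the other way without overlap, at 62.5, 55.1 and 56.7 TPM with CsiRNA and 53.6, 52.6 and 50.5 TPM with NEAT1siRNA. Its log2 fold change was -0.15 and was not called (adjusted p = 0.290 in limma). The MSN values of the groups overlapped. Of 4 immune markers, CD3E was listed at 0, PTPRC and CD14 reached at most 0.0580 and 0.369 TPM, and CD68, a lysosomal protein gene also read in cells outside the immune system, was at 23.2 to 29.2 TPM. The endothelial markers VWF and CDH5 were listed at 0 and PECAM1 reached 0.0125 TPM.

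NEAT1 silencing left 6 of the 9 tested genes without a call. SNAI1 rose to 166.5% of its CsiRNA mean, from 2.67 to 4.44 TPM, while CDH2 fell to 79.1% and FN1 to 71.7% of their CsiRNA means. ZEB1, ZEB2, SNAI2, TWIST1, TWIST2 and VIM did not pass the threshold. CDH1, the target that these factors repress, stayed near the limit of detection in both groups. The 3 calls make 33.3% of the members tested, beside 14% of all genes, with 1 higher and 2 lower. The median log2 fold change of the 9 genes was 0.08.

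**Figure D1:**
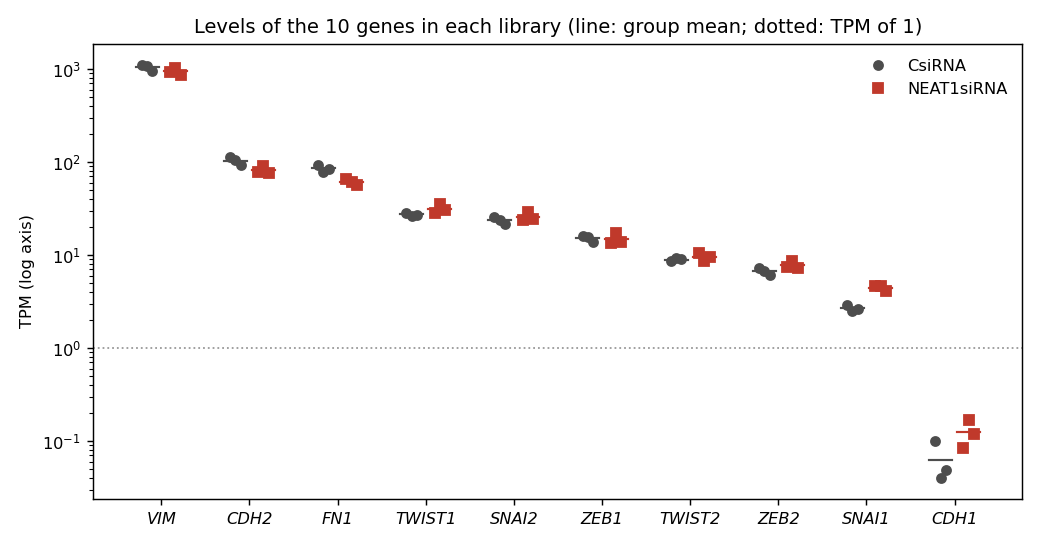
TPM on a log axis for each of the 10 genes, with 1 point per library (circles CsiRNA, squares NEAT1siRNA), group means as lines and a dotted line at 1 TPM. VIM lies at 859 to 1112 TPM, CDH2 and FN1 at 56.3 to 112.6 TPM, the 6 transcription factors at 2.48 to 35.2 TPM, and CDH1 at 0.168 TPM or less. SNAI1, ZEB2, CDH2 and FN1 are the genes above 1 TPM whose groups do not overlap.

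In CsiRNA cells the levels of the 10 genes spanned more than 4 orders of magnitude. VIM, at 1046 ± 78.9 TPM (mean ± SD, n = 3, as for the means below), was the 29th most abundant of the genes tested and exceeded CDH2 10.1-fold. CDH2 (103.7 ± 9.49 TPM) and FN1 (85.2 ± 7.98 TPM) came next, and their CsiRNA values overlapped. TWIST1 (27.5 ± 1.02 TPM), SNAI2 (23.7 ± 2.15 TPM), ZEB1 (15.1 ± 1.25 TPM), TWIST2 (8.94 ± 0.323 TPM) and ZEB2 (6.70 ± 0.545 TPM) followed without overlap between neighbours. SNAI1 was the least abundant of the 6 factors (2.67 ± 0.197 TPM), yet 42.2-fold above CDH1 (0.0632 ± 0.0329 TPM). With NEAT1siRNA the order by mean was the same, and the values of TWIST1 and SNAI2, and those of TWIST2 and ZEB2, overlapped.

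SNAI1 (SNAIL), the factor that in many models is induced early in EMT and whose protein is short-lived, was the member that rose. Its levels were 2.88, 2.48 and 2.65 TPM with CsiRNA and 4.59, 4.66 and 4.09 TPM with NEAT1siRNA. These rest on 88, 77 and 100 recovered reads against 151, 162 and 126. Each NEAT1siRNA library lay above each CsiRNA library by more than the range within either group. The log2 fold change was 0.57 (SE 0.10, 95% interval 0.37 to 0.77, adjusted p = 0.000201). It was called in 16 of 16 other settings that could test it, with log2 fold changes of 0.53 to 0.78 and an adjusted p of at most 0.0288. In bulk RNA, more SNAI1 per cell and more cells that express it cannot be told apart.

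SNAI2 (SLUG), the more abundant SNAIL factor of these cells, was at 25.7, 24.1 and 21.4 TPM with CsiRNA and 23.6, 29.3 and 24.6 TPM with NEAT1siRNA. The groups overlapped, with the lowest value in CsiRNA replicate 3 and the highest in NEAT1siRNA replicate 2. On the log2 scale the difference was 0.11 (95% interval -0.09 to 0.32, adjusted p = 0.5) and was called in none of 17 other settings. A change within this interval is not excluded. SNAI1 amounted to 0.113 of the SNAI2 level in CsiRNA cells and to 0.173 with NEAT1siRNA.

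ZEB1, the factor most closely tied to the mesenchymal state of breast cancer lines, was at 16.1, 15.5 and 13.7 TPM with CsiRNA and 13.5, 17.3 and 14.0 TPM with NEAT1siRNA. The NEAT1siRNA values included both the lowest and the highest of the 6. The mean difference was close to 0 (log2 fold change -0.02, SE 0.10, 95% interval -0.23 to 0.19, adjusted p = 0.916), and its sign turned in 7 of 17 other settings without a call in any. The antisense gene ZEB1-AS1, which overlaps ZEB1, was at 1.68 ± 0.142 TPM with CsiRNA and 2.01 ± 0.242 TPM with NEAT1siRNA (adjusted p = 0.289). Strand use in the authors' counting is not given in the sources used here, so reads of ZEB1 and ZEB1-AS1 may not be fully separated, and the same holds for ZEB2 and VIM with their antisense genes.

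ZEB2, the ZEB1 paralog, was at 7.21, 6.77 and 6.13 TPM with CsiRNA and 7.35, 8.62 and 7.27 TPM with NEAT1siRNA. All 3 NEAT1siRNA values lay above the CsiRNA range, the nearest pair being 7.27 and 7.21 TPM. The log2 fold change was 0.18 (SE 0.10, 95% interval -0.02 to 0.38) and did not pass the threshold (adjusted p = 0.231). This gene depended on how libraries were scaled. It was called at 0.23 after the 4 most abundant short RNAs were removed and TPM rescaled (adjusted p = 0.0440), at 0.23 with quantile normalization (adjusted p = 0.0295), at 0.24 with median centring (adjusted p = 0.0227), at 0.26 with voom on recovered reads (adjusted p = 0.00814), and at 0.22 with the trend on GC content and length removed (adjusted p = 0.00447).

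TWIST1, a basic helix-loop-helix factor of mesoderm and neural crest, was at 28.6, 26.6 and 27.2 TPM with CsiRNA and 28.2, 35.2 and 30.5 TPM with NEAT1siRNA. The groups overlapped through the library at 28.2 TPM, and NEAT1siRNA replicate 2 was highest. TWIST1 had a log2 fold change of 0.18 (95% interval -0.02 to 0.37, adjusted p = 0.235), with calls under quantile normalization (0.21, adjusted p = 0.0446), median centring (0.23, adjusted p = 0.0361) and voom (0.24, adjusted p = 0.0284). TWIST2, its close paralog, was at 8.57, 9.18 and 9.07 TPM with CsiRNA and 10.4, 8.62 and 9.58 TPM with NEAT1siRNA. Its log2 fold change was 0.08 (95% interval -0.11 to 0.28, adjusted p = 0.630), and no setting called it.

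**Figure D2:**
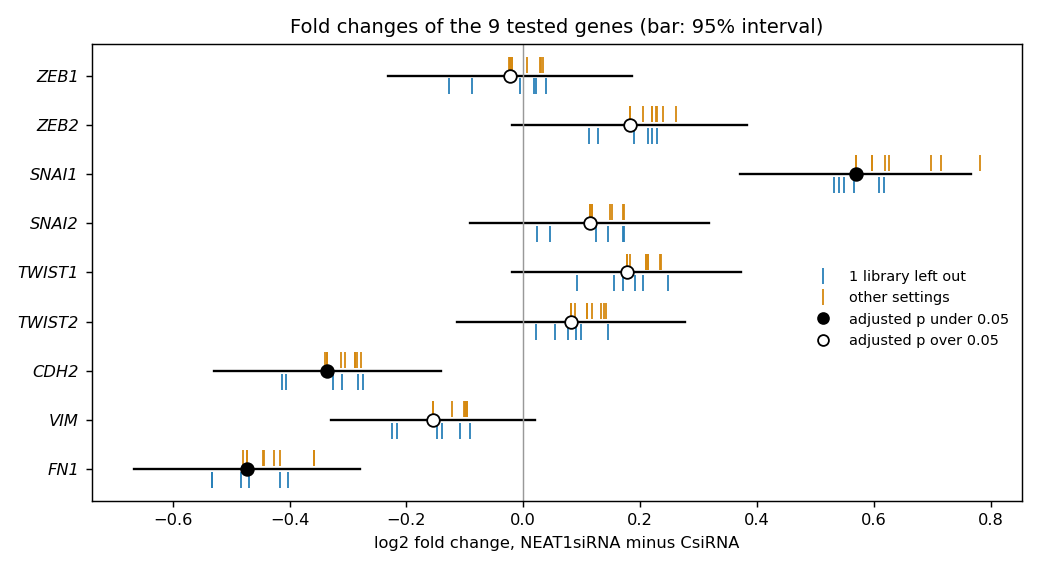
Log2 fold changes of the 9 tested genes, NEAT1siRNA minus CsiRNA, with 95% intervals, filled points for an adjusted p under 0.05, and ticks for the values with 1 library left out (below each bar) and under other settings (above). SNAI1 lies at 0.57, CDH2 at -0.34 and FN1 at -0.47, and every tick of these 3 genes stays on the same side of 0, while the ticks of ZEB1 fall on both sides.

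CDH1 was too low to test. Its levels were 0.101, 0.0398 and 0.0491 TPM with CsiRNA and 0.0843, 0.168 and 0.120 TPM with NEAT1siRNA, from 10, 4 and 6 against 9, 19 and 12 recovered reads. The groups overlapped, since CsiRNA replicate 1 exceeded NEAT1siRNA replicate 1. The summed reads were 20 (exact Poisson 95% interval 12.2 to 30.9) and 40 (28.6 to 54.5), or 0.358 (0.219 to 0.554) and 0.745 (0.532 to 1.01) per 1000000 recovered reads. These intervals cover counting error only and not the spread between cultures. At this depth a level of E-cadherin mRNA like that of SNAI1 was reached in neither group.

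CDH2, which encodes N-cadherin, fell moderately. Its levels were 112.6, 104.9 and 93.7 TPM with CsiRNA and 78.9, 91.1 and 76.0 TPM with NEAT1siRNA, from a mean of 8971 recovered reads. The groups did not overlap, but CsiRNA replicate 3 and NEAT1siRNA replicate 2 lay close to each other. N-cadherin mRNA thus had a log2 fold change of -0.34 (SE 0.09, 95% interval -0.53 to -0.14, adjusted p = 0.0186). The call rested on single libraries, being lost without CsiRNA replicate 1 (-0.27, adjusted p = 0.143), CsiRNA replicate 2 (-0.33, adjusted p = 0.0539) or NEAT1siRNA replicate 3 (-0.28, adjusted p = 0.121), and also with no filter on low values (adjusted p = 0.126). It held in the other 13 of 17 settings.

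FN1 fell further. Fibronectin is assembled into fibrils around cells by α5β1 and other integrins, and its transcript was at 93.8, 78.1 and 83.7 TPM with CsiRNA and 66.4, 60.6 and 56.3 TPM with NEAT1siRNA. The gap between the groups, from 66.4 to 78.1 TPM, was wider than the range of the NEAT1siRNA libraries. It was narrower than that of the CsiRNA libraries, from 78.1 to 93.8 TPM. The log2 fold change was -0.47 (SE 0.09, 95% interval -0.67 to -0.28, adjusted p = 0.00116), and 16 of 17 other settings called it, the exception being the fit with no filter on low values (adjusted p = 0.0515).

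VIM, the main intermediate filament of mesenchymal cells, was at 1112, 1067 and 959 TPM with CsiRNA and 929, 1034 and 859 TPM with NEAT1siRNA. The groups overlapped, and the mean with NEAT1siRNA came to 89.9% of that in control cells. The log2 fold change of -0.15 (SE 0.08, 95% interval -0.33 to 0.02) did not pass the threshold (adjusted p = 0.243) although a mean of 43858 reads per library stood behind it, and it was called only without CsiRNA replicate 3 (-0.22, adjusted p = 0.0389).

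Libraries differed in how their values varied with GC content. Across 10106 genes, the deviation of NEAT1siRNA replicate 2 from its group fell with GC content (Spearman's rho -0.733), and that of NEAT1siRNA replicate 1 rose with it (rho 0.683), as descriptions across genes, which are not independent replicates. For NEAT1siRNA replicate 3 the rho was 0.133, and for CsiRNA replicates 1, 2 and 3 it was -0.212, -0.352 and 0.483. For 6 of the 10 genes the highest value was that of NEAT1siRNA replicate 2, and CDH2, VIM and FN1 were lowest in NEAT1siRNA replicate 3. ZEB1 and ZEB2 transcripts have a GC content of 38.9% and 39.0%, against 58.4% for SNAI1 and 57.2% for TWIST1. Each of these genes, of low or high GC content, was highest in NEAT1siRNA replicate 2. Whether the GC trend bears on the values of the members was not tested. With the trend on GC content and length removed, SNAI1 stood at 0.60, CDH2 at -0.29 and FN1 at -0.36, and each was called.

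Ratios between related genes within a library do not depend on how the library was scaled. A trend on GC content or length need not cancel in them, and no ratio was recomputed with that trend removed. ZEB1 exceeded ZEB2 2.26-fold with CsiRNA and 1.92-fold with NEAT1siRNA, as geometric means. On the log2 scale the 6 ratios were 1.16, 1.2 and 1.16 with CsiRNA and 0.88, 1 and 0.94 with NEAT1siRNA, and the groups did not overlap. The SNAI1 to SNAI2 ratio was higher by 0.62 and the VIM to FN1 ratio by 0.32, from 12.3-fold to 15.4-fold, both without overlap. TWIST1 exceeded TWIST2 3.07-fold and 3.28-fold, with overlap (exact two-sided permutation test, p = 0.8), and the difference of 0.09 on the log2 scale rose to 0.23 without NEAT1siRNA replicate 1 and turned to -0.07 without NEAT1siRNA replicate 2. The CDH2 to CDH1 ratio went from 1777 to 684, a difference of -1.38 that depends on the few CDH1 reads and came to -0.80 with a pseudocount of 0.1. With 3 libraries against 3 the smallest p that the exact permutation test can give is 0.1, which the other 4 ratios reached (0.125 after adjustment over 5 ratios), so no ratio could pass the threshold.

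**Figure D3:**
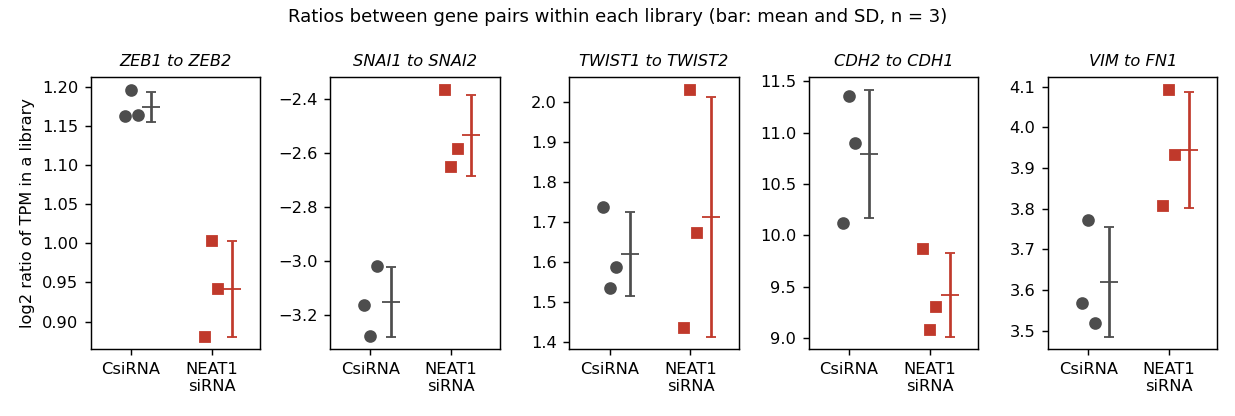
Log2 ratios of TPM between pairs of genes within each library (points), with the mean and SD of each group of 3 beside them. The axes differ between panels and do not start at 0. ZEB1 to ZEB2 and CDH2 to CDH1 are lower with NEAT1siRNA without overlap, SNAI1 to SNAI2 and VIM to FN1 are higher without overlap, and TWIST1 to TWIST2 overlaps.

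The genes whose 6 values lay closest to those of the called members were found by root mean square difference of log2(TPM + 1) from the CsiRNA mean. For SNAI1 these were FADS2, a fatty acid desaturase gene (0.0343), and IDH2, the mitochondrial isocitrate dehydrogenase gene (0.0351). For CDH2 they were PSMD7, a proteasome subunit gene (0.0203), and the diacylglycerol kinase gene DGKE (0.0239). For FN1 they were the immediate early gene IER2 (0.0152) and MICAL3 (0.0279). None of these 6 genes belongs to the lists below, and the likeness is a description over 6 libraries.

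Among other cadherins and catenins, CDH3, CDH6 and CDH11 rose in cells where N-cadherin fell. CDH13 and CDH24, named as the other cadherins tested, were not called (log2 fold changes -0.0003 and -0.12). Of 25 genes, 13 were tested, 4 were higher and 1 was lower (38.5% called, beside 14% of all genes), and the median log2 fold change was -0.02. CDH3, which encodes P-cadherin, rose from 11.5 ± 0.639 to 16.8 ± 0.730 TPM (log2 fold change 0.52, adjusted p = 0.000365). CDH11, a cadherin of mesenchymal and bone-forming cells, rose from 31.5 ± 2.20 to 43.6 ± 4.99 TPM (0.45, adjusted p = 0.00227). CDH6 rose from 8.05 ± 0.688 to 10.7 ± 1.08 TPM (0.37, adjusted p = 0.0112). Vinculin (VCL), which links catenins and talin to actin, fell from 53.0 ± 3.24 to 39.5 ± 2.66 TPM (-0.42, adjusted p = 0.0029). These 4 calls held with each library left out in turn. That of CTNNAL1, named after its value was seen to complete the count (0.28, adjusted p = 0.0483), was lost without any of 5 libraries, with adjusted p of 0.0792 to 0.142. The adherens junction partners CTNNA1 (52.5 ± 3.68 and 53.7 ± 3.58 TPM, adjusted p = 0.865) and CTNNB1 (63.9 ± 6.78 and 59.5 ± 5.20 TPM, adjusted p = 0.555), named for that role and not by the rule, were not called.

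**Figure D4:**
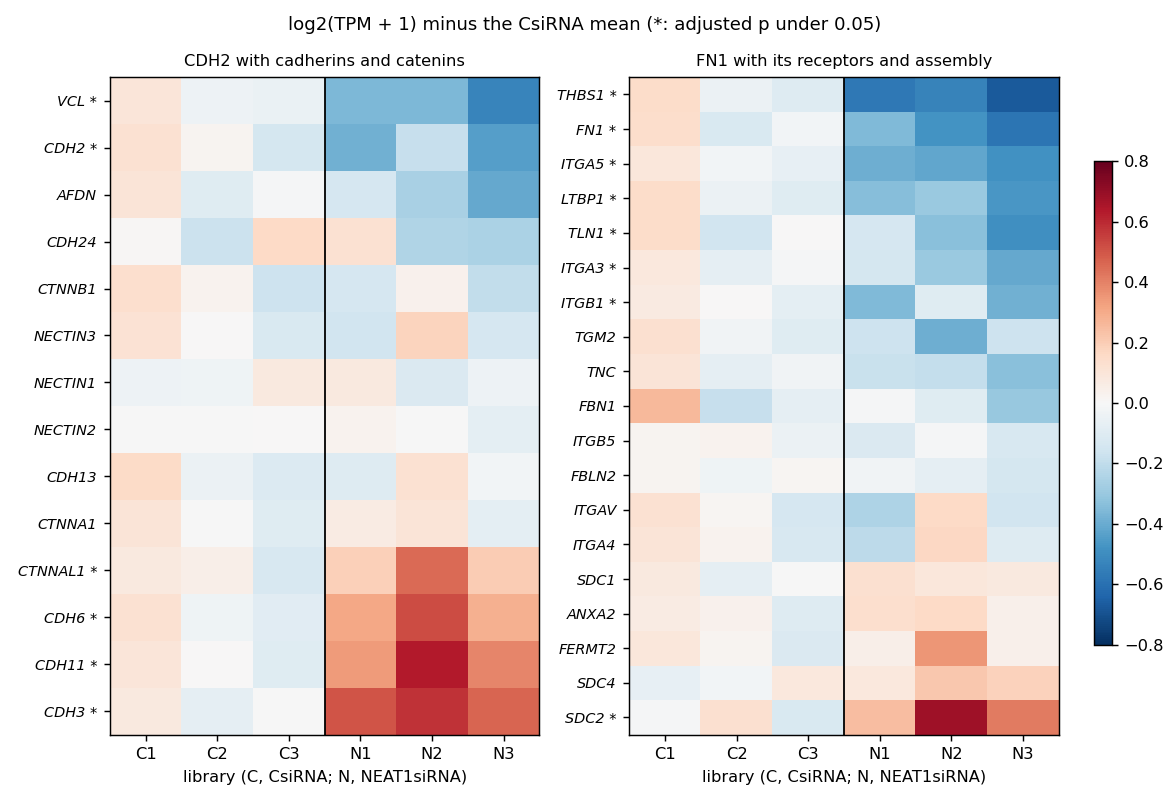
Heat maps of log2(TPM + 1) minus the CsiRNA mean in each library, for CDH2 with the tested cadherins and catenins (left) and FN1 with its tested receptors and assembly genes (right), sorted by the mean of the NEAT1siRNA libraries. Blue is lower and red higher than the CsiRNA mean, C and N number the CsiRNA and NEAT1siRNA replicates, and stars mark an adjusted p under 0.05. CDH2 is blue in all 3 NEAT1siRNA libraries while CDH3, CDH6 and CDH11 are red, and FN1 lies among ITGA5, LTBP1 and THBS1 at the blue end.

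More of the fibronectin receptor and assembly genes were called lower than higher, as over all genes tested (963 lower, 535 higher). Of 22 genes, 18 were tested, 6 were lower and 1 higher (38.9% called, beside 14% of all genes). The median log2 fold change was -0.11 beside -0.04 over all genes. ITGA5, the α5 chain of the main fibronectin receptor, fell from 34.1 ± 1.99 to 25 ± 0.895 TPM (-0.43, adjusted p = 0.00193). THBS1 (thrombospondin-1), a matrix glycoprotein, fell from 365 ± 33.8 to 241 ± 12.0 TPM (-0.59, adjusted p = 4.03e-05). LTBP1, which tethers latent TGF-β to the matrix, fell from 18.6 ± 1.79 to 14.1 ± 0.907 TPM (-0.37, adjusted p = 0.0104), but not without CsiRNA replicate 1 or NEAT1siRNA replicate 3 (adjusted p from 0.0748 to 0.0923). SDC2, the proteoglycan syndecan-2, rose from 1.32 ± 0.202 to 2.18 ± 0.483 TPM (0.45, adjusted p = 0.00732), with a larger fold change on recovered reads in voom (0.78, adjusted p = 0.00225). The β1 chain gene ITGB1, named after its value was seen as the partner of ITGA5, had a log2 fold change of -0.28 (adjusted p = 0.0351) that was lost without any of 4 libraries, with adjusted p of 0.0895 to 0.199. ITGB3, the β3 chain gene under the filter, was called lower in the fit with no filter (-0.29, adjusted p = 0.0335). The count of lower genes was 2 without CsiRNA replicate 1 and 2 without NEAT1siRNA replicate 3. It ranged from 4 to 7 across the 5 other scalings, with 1 to 5 higher.

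Among intermediate filaments and the linkers of vimentin, 9 of 19 genes were tested, 2 were lower and 1 higher (33.3% called, beside 14% of all genes), with a median of 0.02. PLEC (plectin) and DST (dystonin), giant linkers of intermediate filaments to junctions and microtubules, fell from 21.2 ± 3.93 to 13.6 ± 2.23 TPM (-0.60, adjusted p = 0.00102) and from 16.9 ± 3.45 to 10.7 ± 1.49 TPM (-0.59, adjusted p = 0.00102). With the trend on GC content and length removed, the DST fold change was -0.36 (adjusted p = 0.00181). SYNM (synemin), which co-assembles with vimentin, was at 3.27 ± 0.246 and 4.25 ± 0.492 TPM (0.30, adjusted p = 0.0467), a call lost without any of 5 libraries (adjusted p from 0.0568 to 0.179). The nuclear lamin genes LMNA, LMNB1 and LMNB2, named as the ubiquitous members of the family, had log2 fold changes of 0.14, 0.00 and -0.02 without a call.

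Other mesenchymal genes moved in both directions. Of 34 genes, 24 were tested, 7 were lower and 4 higher (45.8% called, beside 14% of all genes), and the median was -0.05. MMP14, a membrane-bound matrix metalloproteinase, fell from 112 ± 4.80 to 69.2 ± 4.68 TPM (-0.69, adjusted p = 6.67e-06). The matrix proteoglycan VCAN (versican) fell from 18.1 ± 2.58 to 10.8 ± 0.825 TPM (-0.69, adjusted p = 4.83e-05). MGP, the matrix Gla protein gene, rose from 2.75 ± 0.186 to 5.61 ± 0.682 TPM (0.82, adjusted p = 3.09e-06). These calls held with each library left out. WNT5B, NT5E, CALD1 and FAP were also lower and S100A4, MYL9 and WNT5A also higher, listed after their values were seen. The CALD1 call was lost without CsiRNA replicate 1 or 2 or NEAT1siRNA replicate 1 or 3 (adjusted p from 0.0701 to 0.118), and that of FAP without CsiRNA replicate 1 or 3 or NEAT1siRNA replicate 1 (adjusted p from 0.0576 to 0.147) and with median centring. Across the 5 other scalings 6 to 10 were higher and 6 to 8 lower, and the median turned positive under median centring (0.01), voom (0.01) and removal of the GC and length trend (0.01).

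Most epithelial genes were near or below the limit of detection in both groups. Of 30 genes, 22 were under the filter, including EPCAM, CLDN4, KRT19 and RAB25, with at most 2 recovered reads in any library, and 2 of the 22 were listed at 0 throughout. In 30.3% of all genes tested, the groups did not overlap. Among the 22 under the filter they did not in 5, each with NEAT1siRNA higher. MAL2, a membrane traffic protein gene, was the most abundant of these, at 0.385, 0.362 and 0.386 TPM with CsiRNA and 1.14, 0.967 and 1.11 TPM with NEAT1siRNA, from 21, 20 and 26 against 67, 60 and 61 recovered reads. It was called in the fit with no filter (log2 fold change 0.59, adjusted p = 0.00720). The others were the epithelial factor genes ELF3 (6, 3 and 3 against 16, 11 and 7 reads) and GRHL2 (1, 2 and 3 against 3, 7 and 4 reads), the splicing factor gene ESRP1 (1, 1 and 1 against 6, 4 and 5 reads) and the polarity gene LLGL2 (4, 2 and 2 against 11, 6 and 8 reads), of which none was called in that fit (adjusted p from 0.0713 to 0.338). These 5 are named after their values were seen. Of the 8 tested, 1 was called, KRT7, which fell from 39.6 ± 2.34 to 30.8 ± 2.31 TPM (-0.35, adjusted p = 0.0112; adjusted p = 0.0878 without NEAT1siRNA replicate 3). The share called was 12.5%, near the 14% of all genes, and the median was 0.01. The tight junction gene TJP1, named as a member of the list with a known junctional role, was at 8.67 ± 0.430 and 9.04 ± 0.951 TPM (adjusted p = 0.790). MIR200CHG and MIR205HG, the host genes of microRNAs that repress ZEB1 and ZEB2, were listed at 0 in all 6 libraries.

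Other transcription factors linked to EMT moved both ways. Of 22 genes, 15 were tested, with 2 higher and 2 lower (26.7% called, beside 14% of all genes) and a median of 0.07. FOXC1, a forkhead factor of basal-like breast cancer, rose from 26.2 ± 0.364 to 37.6 ± 2.84 TPM (0.50, adjusted p = 0.000443). SOX9, a factor of progenitor cells, rose from 10.2 ± 0.770 to 14.6 ± 0.678 TPM (0.48, adjusted p = 0.00105). Both were called in 17 of 17 other settings. ETS1 fell from 48.9 ± 3.33 to 39.8 ± 3.56 TPM (-0.29, adjusted p = 0.0391) and HMGA2, an architectural chromatin protein gene, from 4.04 ± 0.483 to 3 ± 0.497 TPM (-0.34, adjusted p = 0.0337). The ETS1 call was lost without CsiRNA replicate 1 or 2 or NEAT1siRNA replicate 1 or 3 (adjusted p from 0.0729 to 0.215), and that of HMGA2 without CsiRNA replicate 1 or NEAT1siRNA replicate 1 or 3 (adjusted p from 0.0778 to 0.192). Across the other scalings 6 to 7 of these factors were higher and 2 lower.

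Most genes of the machinery through which ZEB and SNAIL proteins act and are degraded gave no call. Most of all genes tested gave none either (14% called), and each share below rests on at most 1 call. Of 20 corepressors and histone modifiers, all tested, 1 was called (5%), the LIM protein gene AJUBA, a SNAIL corepressor, which fell from 15.7 ± 0.901 to 11.2 ± 0.460 TPM (-0.45, adjusted p = 0.0014). The list median was -0.06. Of 20 genes for the turnover of SNAIL, TWIST and ZEB proteins, 16 were tested and 1 was called (6.25%), the Hippo kinase gene LATS2, which fell from 10.8 ± 0.714 to 7.64 ± 0.886 TPM (-0.46, adjusted p = 0.00239), with a list median of -0.08. GSK3B, the kinase that marks SNAIL for degradation, named for that role, was at 24.1 ± 1.13 and 25.1 ± 2.92 TPM (adjusted p = 0.785). Of 10 RNA-binding factors of epithelial or mesenchymal splicing, 9 were tested and 0 were called by limma, 2 at an unadjusted p under 0.05, and voom called 3 higher. Of 9 antisense and host RNAs of the members, 3 were tested and 0 called by limma, 1 at an unadjusted p under 0.05 and 1, lower, by voom.

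With no filter on low values, where 505 genes were called in all, the calls of CAV2, CDH6, CDH11, CTNNAL1, SDC2, LTBP1, ITGB1, PLEC, DST, SYNM, KRT7, ETS1, HMGA2, LATS2, CALD1, FAP, S100A4 and WNT5A were lost. Those of CDH3, VCL, ITGA5, THBS1, MMP14, VCAN, MGP, FOXC1, SOX9 and AJUBA held in every setting that tested them.

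**Figure D5:**
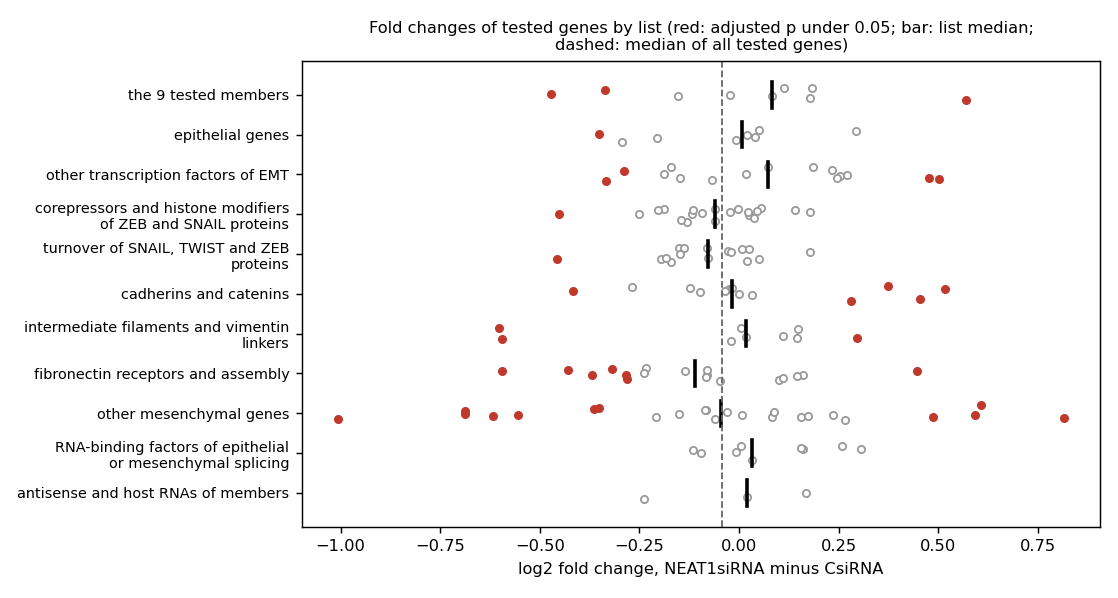
Log2 fold changes of the tested genes of each list (points, red where the adjusted p was under 0.05), with list medians as bars and the median of all genes tested, -0.04, as a dashed line. The 9 members spread from -0.47 (FN1) to 0.57 (SNAI1), and other mesenchymal genes lie on both sides of 0, with MMP14 and VCAN at -0.69 and MGP at 0.82.

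On GRCh38, the transcription factors lie at chr10:31318495-31529814 (ZEB1), chr2:144364364-144521057 (ZEB2), chr20:49982980-49988886 (SNAI1), chr8:48917598-48921740 (SNAI2), chr7:19020991-19117636 (TWIST1) and chr2:238848032-238910534 (TWIST2). The cadherin genes lie at chr16:68737292-68835537 (CDH1) and chr18:27932879-28177946 (CDH2), VIM at chr10:17228241-17237593 and FN1 at chr2:215360440-215436073. These are whole-gene spans of the GENCODE annotation, and reads were counted per gene by the authors, so isoforms, such as those of FN1 that differ by the extra domains, were not separated.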

How the data were processed

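RNA-seq was from BT-549 cells with CsiRNA or NEAT1siRNA, 3 libraries each, labelled as cultured in triplicate. Whether the cultures were independent is not stated, so p-values measure the spread between these samples. The authors used TruSeq Stranded mRNA libraries, STAR, GRCh38 and DESeq2 (per the labels and methods), and deposited TPM for 25545 genes. Their comparison table holds, for 19392 genes, the signal averaged over all libraries after size-factor division, which served here only to recover reads from the deposited TPM, and fold changes and p-values that were not used. For the least abundant genes 99.8% of recovered values were whole to within 0.05 and for the most abundant 17.2%, so large read numbers are approximate.

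A mean TPM of at least 1 was required, and log2(TPM + 1) was compared with limma 3.58.1 (lmFit, eBayes with trend, two-sided) in R 4.3.3, with Benjamini-Hochberg adjustment over 10721 genes. This scale understates the change of low genes. Ratios were compared by exact permutation in scipy 1.17.1. The 10 genes and the lists were chosen with earlier results of these data known. From each list at most 4 called genes were named, those with the largest fold change, and for each called member the 2 nearest genes; others are marked as named for their role or value. The result of 1 gene that this rule names is not reported here. In 5 simulated sets for this comparison (10710 genes), recovery was 99.0% at a log2 fold change of 1 and 42.7% at 0.5, and 8.08% of calls were false. These sets changed few genes, gave every gene the same dispersion and held no trend on GC content or length. The shares therefore need not hold for the measured libraries.

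Settings varied were the pseudocount (0.1), no filter, a minimum mean TPM of 5, rescaling without 4 short RNAs (64.4% to 68.1% of all TPM), quantile normalization, median centring, eBayes without trend, a replicate block, each left-out library, voom on recovered reads, and a spline correction (4 degrees of freedom) for GC content and length, alone or with the block. Coordinates and GC content, the latter for 94.3% of tested genes, are from GENCODE v44 by symbol.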

Additional observations from a re-analysis of the deposited data

How the results depend on the processing

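Of 152 fold changes of the 9 tested members under other settings, 130 kept their direction and side of the threshold, 10 passed it newly, 5 lost it and 7 turned sign, all of these for ZEB1. ZEB1 came to 0.00719 after rescaling without 4 short RNAs, 0.0302 with quantile normalization, 0.0337 with median centring and 0.0287 with voom, and ran from -0.126 to 0.0387 with 1 library left out. Members called numbered 3, but 1 without the TPM filter and 5 with quantile normalization, median centring or voom. The number of genes called, 1498, was 505 with no filter, 2504 with voom, 3423 with the GC and length trend removed (3334 with the replicate block as well), and 759 to 2083 with 1 library left out. The cause was not tested. The split into higher and lower genes, 535 and 963, was 918 and 1174 after rescaling, 1082 and 1109 with quantile normalization, 1158 and 954 with median centring, 1244 and 1260 with voom, and 1680 and 1743 with the trend removed. Of 35 ratio differences recomputed, CDH2 to CDH1 with a pseudocount of 0.1 (-0.799) moved by over 1 SD, and TWIST1 to TWIST2 ran from -0.0664 to 0.231 with 1 library left out. A replicate block called 1640 genes. Same-numbered libraries deviated from their group means with correlations of -0.0304, 0.251 and -0.107. These values did not show a pairing by number, but with so few libraries they cannot exclude one. No replicate block changed a call of SNAI1, CDH2 or FN1. Depth limits CDH1, with 4 to 19 reads per library.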
